A study of Mus musculus with 12 samples.

Results

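The pair described here is mmu-miR-125a-5p and mmu-miR-125b-5p, 2 of the 1915 mouse miRNA names in the deposited miRNA table. Both were chosen by measured values, namely their high abundance at low RNA input and low abundance at high input before oxidation. Those values are therefore given as a description, with no test. The mice were C57BL/6 males, 4 months old. Their testis total RNA gave libraries of small RNAs of 17 to 40 nt. The 6 groups were 10, 50 and 100 ng of total RNA, each sequenced without oxidation (before) and following treatment with sodium periodate, NaIO4 (after). Each group had 2 technical replicates, so that 12 libraries entered the comparisons and every p-value measures the spread between libraries, not between mice. No treatment of the mice, mutant or second tissue was part of the design. The labels name the library method 10ng-seq and state that spike-in RNA was scaled to the input. In bulk RNA such as this, fewer cells of a type and less RNA per cell cannot be told apart.

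Members of the miR-125 family are the vertebrate relatives of lin-4, the first miRNA found in the worm, where it times larval development. In mammals they repress Lin28 among other targets, and Lin28 in turn blocks maturation of let-7. Their genes lie in clusters with genes of the miR-99/100 and let-7 families, and the products of 1 cluster can be cut from 1 primary transcript. Periodate opens the last ribose of an RNA when both of its hydroxyls are free, and the opened end is a poor substrate for adapter ligation. Animal piRNAs carry a 2′-O-methyl group there and withstand the treatment, whereas animal miRNAs generally do not.

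The mature sequences are shown because the pair, its seed relative and its cluster partners fall into 3 seed groups. Each is written 5′ to 3′ as in RefSeq (GRCm38.p6), with the seed (bases 2 to 8) in capitals. The seed CCCUGAG is shared by both members and miR-351-5p:
miR-125a-5p: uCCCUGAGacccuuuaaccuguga
miR-125b-5p: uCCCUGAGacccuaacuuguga
miR-351-5p: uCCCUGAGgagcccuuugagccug
The seed ACCCGUA is shared by the 3 partners of the miR-99/100 family:
miR-99b-5p: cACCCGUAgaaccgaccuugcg
miR-100-5p: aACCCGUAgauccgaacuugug
miR-99a-5p: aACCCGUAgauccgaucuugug
The seed GAGGUAG is shared by the 3 partners of the let-7 family:
let-7e-5p: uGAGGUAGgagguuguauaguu
let-7a-5p: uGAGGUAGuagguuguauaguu
let-7c-5p: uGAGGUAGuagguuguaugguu

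miR-125a-5p (24 nt) and miR-125b-5p (22 nt) share their first 13 and last 5 bases, and 21 of 24 columns of their alignment are identical. Both have 50% G and C. Counting from 1 at the 5′ end, let-7a-5p differs from let-7c-5p by A19G and from let-7e-5p by U9G, and miR-99a-5p differs from miR-100-5p by U16A. How reads were assigned between such near-identical miRNAs is not given in those sources that were used here. Every deposited value of the pair and of these 6 partners was a whole number of reads within 0.01 of a read.

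The pair is made from 3 genes on 3 chromosomes, all on the plus strand. miR-125a-5p lies at chr17:17830817-17830840, downstream of Mir99b and Mirlet7e in a cluster of 683 bases (chr17:17830194-17830876). In GENCODE M21 that cluster lies within the protein-coding gene Spaca6 on the same strand, with Mir125a overlapping an annotated exon and the other 2 genes in introns. miR-125b-5p is made from Mir125b-1 (chr9:41581940-41581961) and Mir125b-2 (chr16:77646279-77646300), whose mature sequences are identical, so its reads could not be split between them. Mir125b-1 is the last gene of a cluster of 50565 bases with Mir100 and Mirlet7a-2, inside introns of the non-coding genes 3110039I08Rik and Gm49317. Mir125b-1 also overlaps an exon of the sense-intronic transcript Gm28119. Mir125b-2 is the last gene of a cluster of 47400 bases with Mir99a and Mirlet7c-1, inside introns of the non-coding gene Mir99ahg. Mature let-7a-5p and let-7c-5p are also made from genes outside these clusters, such as Mirlet7a-1 and Mirlet7c-2 in the RefSeq table, so their values are not those of the clusters alone.

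The RPM values (reads scaled to the total of a library) rested on recovered totals of 1924201 to 3347735 reads per library. Before oxidation 326701 to 454158 of these were miRNA reads, after it 625 to 937. The floor used here, 3 reads, corresponded to 0.896 to 1.56 RPM depending on the library. Unmethylated spike-ins made up 11.9% and 13.5% of spike-in reads at 10 ng, 21.9% and 22.3% at 50 ng, then 26.7% and 27.0% at 100 ng before oxidation. miRNAs known from testis were present: miR-741-3p of germ cells ranged from 20428 to 33938 RPM before oxidation, and miR-202-5p of Sertoli cells from 62.1 to 191 RPM. Replicates of every group differed by more than sampling noise, with chi-square per degree of freedom of 2.48 to 11.9, and all 12 libraries were kept as separate samples.

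Before oxidation miR-125a-5p stood at 3012 and 3186 RPM in the libraries of 10 ng, at 480.4 and 439 RPM at 50 ng, and at 159 and 152 RPM at 100 ng. The replicates lay close together and the 3 inputs did not overlap. These values came from 8432 and 8776 reads, 1239 and 1469 reads, and 472 and 497 reads. In the order of abundance within a library, miR-125a-5p was 14th in both libraries of 10 ng, 29th and 30th at 50 ng, and 50th and 54th at 100 ng. The mean at 10 ng was 19.9 times that at 100 ng, and the mean at 50 ng was 2.96 times that at 100 ng. Both ratios use the same 100 ng libraries.

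Before oxidation miR-125b-5p stood at 2368 and 2373 RPM at 10 ng, at 587 and 597 RPM at 50 ng, and at 254 and 237 RPM at 100 ng. Here too the inputs did not overlap, and the order of inputs was that of miR-125a-5p. The reads behind the values were 6630 and 6535, 1514 and 1999, and 754 and 776. miR-125b-5p was 16th in both libraries of 10 ng, 26th and 25th at 50 ng, and 36th and 40th at 100 ng. The mean at 10 ng was 9.66 times that at 100 ng, and the mean at 50 ng was 2.41 times that at 100 ng.

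The members changed places along the inputs. The ratio of miR-125a-5p to miR-125b-5p was 1.27 and 1.34 at 10 ng, 0.818 and 0.735 at 50 ng, then 0.626 and 0.640 at 100 ng. miR-125a-5p was thus the more abundant of the pair at 10 ng and the less abundant at 50 and 100 ng, in both replicates of each. Together they took 4.61% (95% exact binomial interval 4.54 to 4.68) and 4.64% (4.57 to 4.72) of the miRNA RPM at 10 ng. The share was 0.817% (0.787 to 0.848) and 0.809% (0.782 to 0.836) at 50 ng, and 0.305% (0.288 to 0.322) and 0.280% (0.265 to 0.296) at 100 ng. These intervals cover counting error only, since reads without molecular identifiers are not independent molecules.

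After oxidation the pair was near the limit of detection. miR-125a-5p had 2 and 6 reads at 10 ng (0.925 and 3.12 RPM), 4 and 0 reads at 50 ng (1.40 and 0 RPM), and 1 read in each library of 100 ng (0.299 and 0.316 RPM). miR-125b-5p had 2 and 4 reads at 10 ng (0.925 and 2.08 RPM), 0 and 2 reads at 50 ng (0 and 0.890 RPM), and 2 reads in each library of 100 ng (0.598 and 0.632 RPM). Only 3 of these 12 values came from at least 3 reads.

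**Figure D1:**
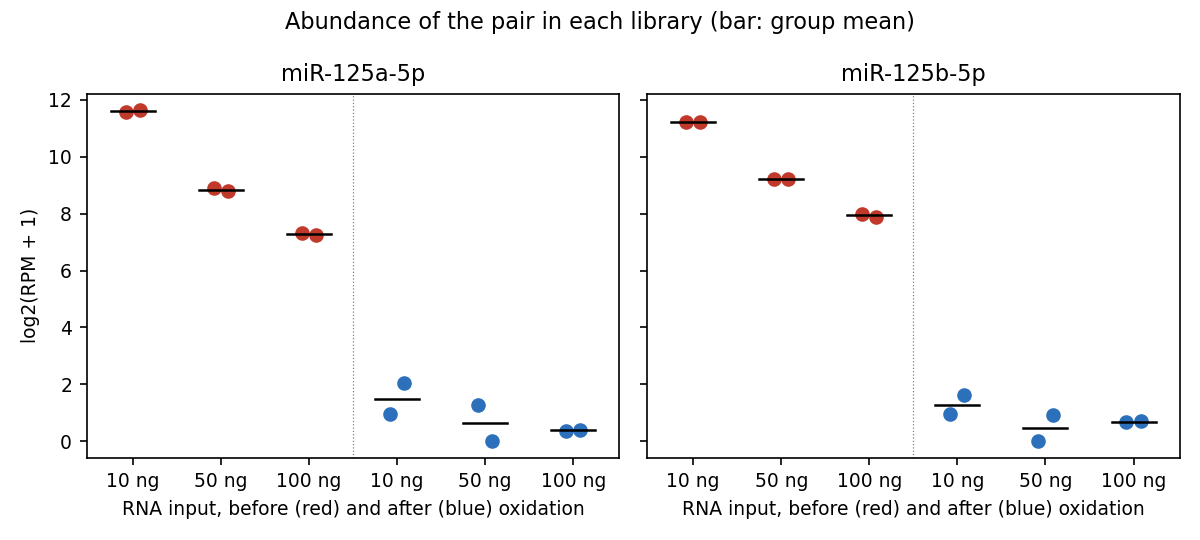
Abundance of miR-125a-5p (left) and miR-125b-5p (right) as log2(RPM + 1) in each of the 12 libraries, by RNA input, before (red) and after (blue) oxidation. Points are libraries and bars the means of 2 libraries; the red points step down from 10 to 100 ng without overlap, and all blue points lie far below them.

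The pair headed the order of miRNAs by the difference between 10 and 100 ng before oxidation when 1 RPM was added before taking logarithms. On the log2(RPM + 1) scale this difference was 4.31 for miR-125a-5p and 3.27 for miR-125b-5p, places 1 and 2 among the 141 miRNAs with a mean of at least 5 RPM. Over all 141 the median was -0.49, with quartiles of -0.90 and 0.36 and a lowest value of -2.80; 48 differences were above 0 and 93 below. Among the miRNAs of at least 50 RPM before oxidation, the one next below the pair was miR-423-5p, at a mean of 351 RPM at 10 ng, 123 RPM at 50 ng and 77.8 RPM at 100 ng, a difference of 2.15. By the plain ratio of mean RPM between 10 and 100 ng, miR-151-3p came between the members, at 10.3 against 19.9 for miR-125a-5p and 9.66 for miR-125b-5p. Its means were 52.7, 11.4 and 5.10 RPM and its log2(RPM + 1) difference 3.14, and it was singled out after its values were seen.

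**Figure D2:**
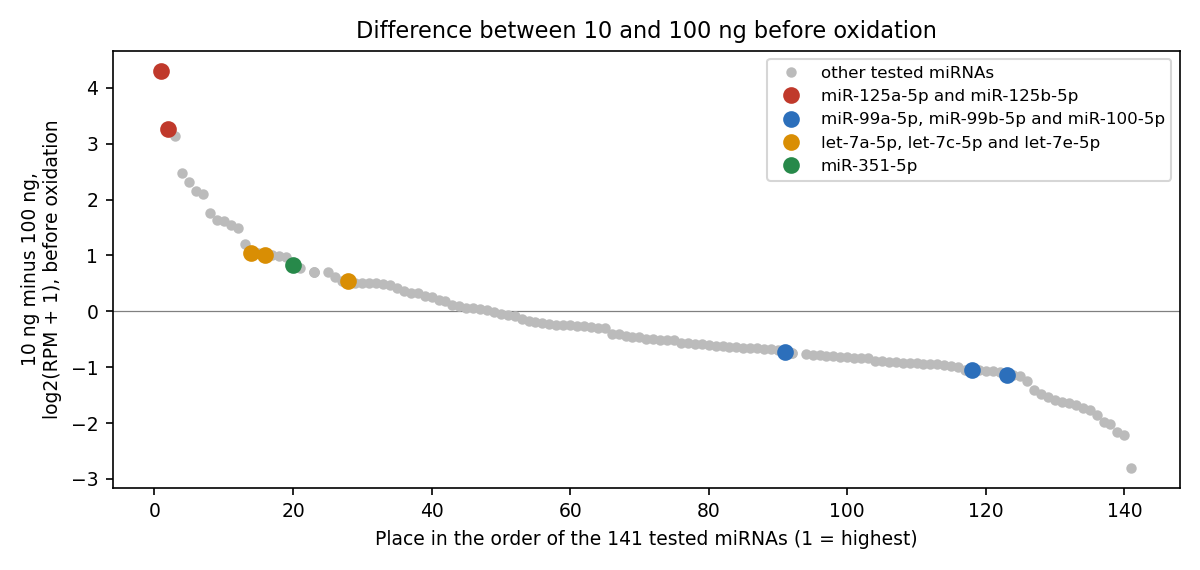
Difference between 10 and 100 ng before oxidation, as log2(RPM + 1), for the 141 tested miRNAs in descending order. The pair (red) takes places 1 and 2 at 4.31 and 3.27, the 3 let-7 partners (orange) and miR-351-5p (green) lie above 0, and the 3 miR-99/100 partners (blue) lie below 0.

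The cluster partners did not share the pair's range over the inputs. In the chromosome 17 cluster miR-99b-5p, which precedes miR-125a, stood at 2700.4 and 2715 RPM at 10 ng, 3752 and 3566 RPM at 50 ng, and 4187 and 4849 RPM at 100 ng. Its order of inputs was the opposite of that of miR-125a-5p, with no overlap. let-7e-5p, encoded between them, stood at 164 and 184 RPM at 10 ng, 115 and 103 RPM at 50 ng, and 90.4 and 81.4 RPM at 100 ng. It ran the same way as miR-125a-5p, with a ratio of 2.03 between the means at 10 and 100 ng against 19.9 for miR-125a-5p. Relative to the sum of its own 2 partners, miR-125a-5p was at 1.05 and 1.10 at 10 ng, 0.124 and 0.120 at 50 ng, then 0.0372 and 0.0307 at 100 ng.

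In the clusters of miR-125b the miR-99/100 partners again had their highest values at 100 ng. miR-100-5p stood at 5104 and 5365 RPM at 10 ng, 8449.7 and 7948 RPM at 50 ng, and 10349 and 11399.7 RPM at 100 ng. miR-99a-5p stood at 3752 and 3892 RPM at 10 ng, 6318 and 5929 RPM at 50 ng, and 8038 and 8796 RPM at 100 ng. Both were ordered from 10 up to 100 ng without overlap, against the order of miR-125b-5p. let-7a-5p stood at 3552 and 3468 RPM at 10 ng, 2869 and 2730.2 RPM at 50 ng, and 2518 and 2316 RPM at 100 ng. let-7c-5p stood at 3453 and 3476 RPM at 10 ng, 2285 and 2194 RPM at 50 ng, and 1779.5 and 1588 RPM at 100 ng. The let-7 partners thus had the order of miR-125b-5p, but ratios between 10 and 100 ng of 1.45 and 2.06 against its 9.66. Relative to the sum of its 4 partners, miR-125b-5p was at 0.149 and 0.146 at 10 ng, 0.0295 and 0.0318 at 50 ng, then 0.0112 and 0.00982 at 100 ng.

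**Figure D3:**
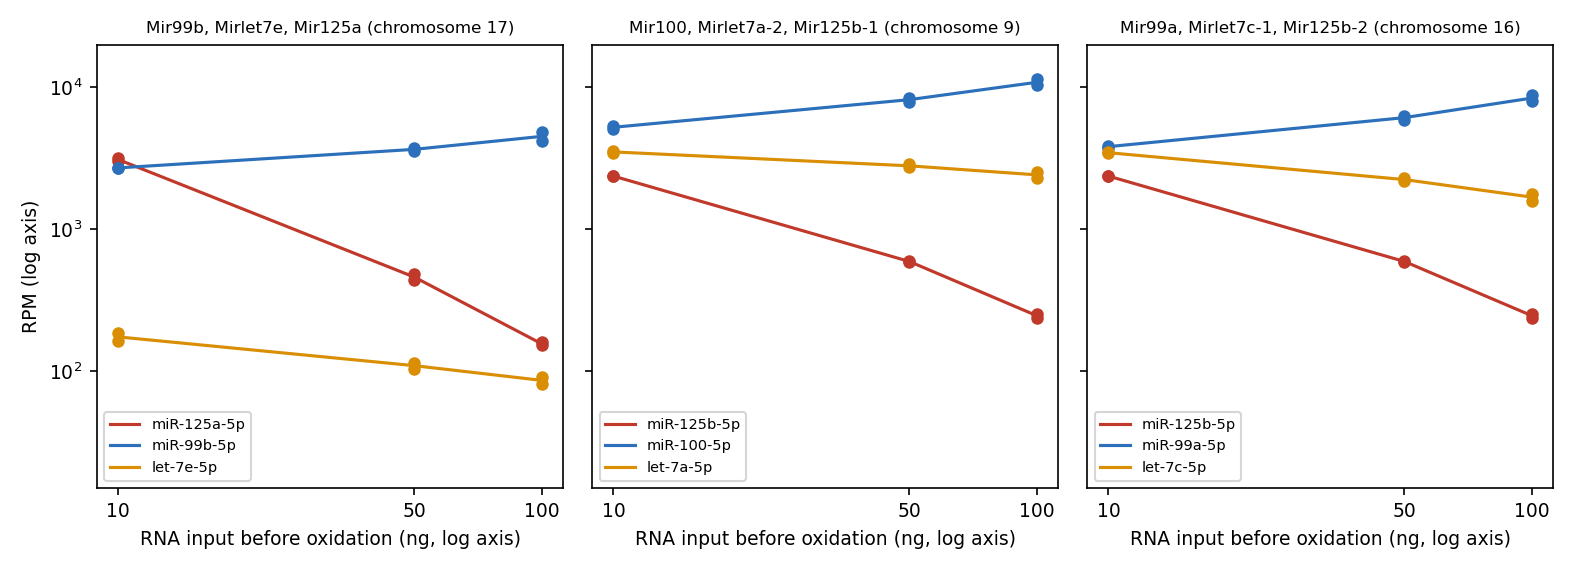
RPM (log axis) against RNA input before oxidation (log axis) for the 3 clusters; points are libraries, lines join group means, and miR-125b-5p is drawn in both of its clusters. In each panel the member of the pair (red) drops steeply with input, the let-7 partner (orange) drops less, and the miR-99/100 partner (blue) climbs.

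The rule did not pick the partners, so their differences were tested with limma over the 141 miRNAs and called at an adjusted p under 0.05. Between 10 and 100 ng before oxidation, limma called 49 miRNAs lower (34.8%) and 27 higher (19.1%) at 10 ng. All 3 miR-99/100 partners were called lower at 10 ng. The log2(RPM + 1) differences (± SE, limma) were -1.14 ± 0.28 for miR-99a-5p (adjusted p = 0.00934), -1.05 ± 0.29 for miR-100-5p (adjusted p = 0.0147) and -0.73 ± 0.26 for miR-99b-5p (adjusted p = 0.0410). Of the 3 let-7 partners, 1 was called higher, let-7e-5p at 1.01 ± 0.24 (limma adjusted p = 0.00761). The limma differences of let-7c-5p (1.04 ± 0.49, adjusted p = 0.0991) and let-7a-5p (0.54 ± 0.32, adjusted p = 0.167) did not pass. In this fit, also between 50 and 100 ng, the SE and p-values rest on the spread within groups over all 12 libraries. That includes the sparse libraries after oxidation, where let-7c-5p had 11 and 1 reads at 50 ng.

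With only the 4 libraries compared in the limma fit, all 6 partners were called, 3 lower and 3 higher, and the whole table gave 72 lower and 30 higher calls. Leaving out 1 library reduced the partners called lower to 1 (either library of 10 ng, or the first of 100 ng before oxidation) or 0 (the second of 100 ng). Scaling changed the balance of calls over the whole table: centring on library medians gave 23 lower and 37 higher, scaling to all spike-in reads 24 and 47, scaling to methylated spike-ins 39 and 40, quantile normalization 13 and 14, and edgeR with TMM 33 and 42. No fitted alternative turned the direction of a partner between 10 and 100 ng, although values per unmethylated spike-in read did so for the miR-99/100 partners. Counts of called miR-99/100 partners were 0 after centring, quantile normalization and scaling to all spike-in reads. The call of miR-99b-5p was the least firm of these partners. Its difference ran from -0.91 to -0.16 over the 13 alternatives other than leaving out 1 library.

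Between 50 and 100 ng before oxidation, limma called none of the partners and none of the 141 miRNAs (0%), with 24 miRNAs at an unadjusted p under 0.05. The comparison shares its 100 ng libraries with the one above. The limma differences were -0.46 for miR-99a-5p, -0.41 for miR-100-5p, -0.30 for miR-99b-5p, 0.41 for let-7c-5p, 0.34 for let-7e-5p and 0.21 for let-7a-5p. Over the whole table edgeR with TMM called 4 lower and 7 higher, DESeq2 16 and 19, and limma on only the 4 libraries compared 22 and 20, the latter with 3 partners lower and 2 higher. The members' own differences here, 1.56 and 1.27, were values of the rule's own trend and were not tested.

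RPM can also be multiplied by input, which changes the ratio between 10 and 100 ng of every miRNA by the same factor. The distance between the pair and its partners is therefore that of the RPM values. RPM multiplied by input stays level for a miRNA whose share of the library varies inversely with the RNA used. For miR-125b-5p this product averaged 23704, 29605 and 24543 RPM × ng at 10, 50 and 100 ng, a ratio of 0.966 between 10 and 100 ng. For miR-125a-5p it averaged 30990.1, 22981 and 15535 RPM × ng, a ratio of 1.99. The ratios of the 6 partners were 0.0454 for miR-99a-5p, 0.0481 for miR-100-5p, 0.0599 for miR-99b-5p, 0.145 for let-7a-5p, 0.203 for let-7e-5p and 0.206 for let-7c-5p. The product was thus near level between 10 and 100 ng for miR-125b-5p only, and not for miR-125a-5p. A near-level product is not particular to miR-125b-5p, since miR-151-3p had an RPM ratio of 10.3 between 10 and 100 ng.

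Dividing by spike-in reads applies the same factor to all miRNAs of a library. It changed the sizes of the ratios and could hardly change their order. Per methylated spike-in read, the ratio between 10 and 100 ng was 24.9 for miR-125a-5p and 12.1 for miR-125b-5p, 1.81 to 2.57 for the let-7 partners, and 0.567 to 0.747 for the miR-99/100 partners. Per unmethylated spike-in read it was 63.0 and 30.5 for the pair, and all 6 partners were then above 1, with the miR-99/100 partners at 1.43 to 1.89. The direction of the miR-99/100 partners thus turned with the choice of spike-in, while that of the pair did not. The unmethylated share of spike-in reads itself moved with input, as given above, and its part in these values was not tested.

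**Figure D4:**
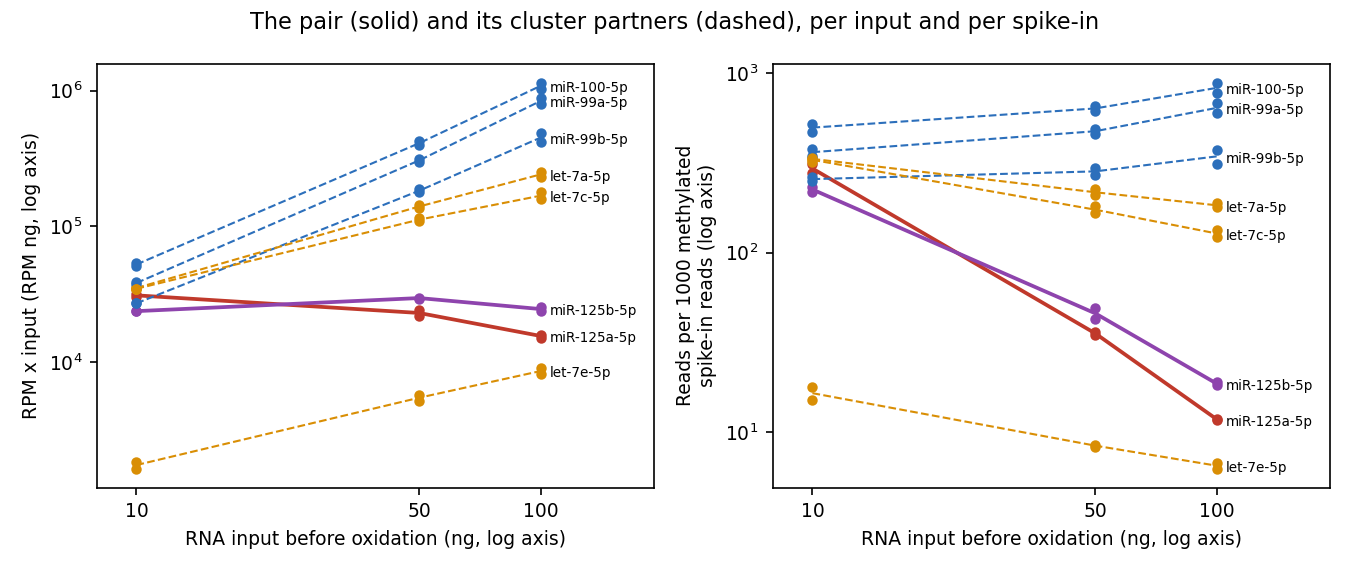
RPM multiplied by input (left) and reads per 1000 methylated spike-in reads (right) against RNA input before oxidation, all axes logarithmic; points are libraries and lines join group means. On the left the pair (solid) stays within 15535 to 30990.1 RPM × ng on average while every partner (dashed) climbs; on the right the pair drops by ratios of 24.9 and 12.1.

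Of the 7 tissue miRNAs tested, 2 were called between 10 and 100 ng before oxidation, beside 53.9% of all tested miRNAs in either direction. Among the 7, limma called miR-202-5p lower at 10 than at 100 ng before oxidation (-1.47 ± 0.40, adjusted p = 0.0143) and miR-871-3p, of the X-linked testis cluster, higher (1.21 ± 0.26, adjusted p = 0.00566). The other 5 (miR-741-3p, miR-743b-3p, miR-470-5p, miR-34c-5p and miR-143-3p) were not called, with limma differences from -0.97 to 0.77. The smooth muscle miRNA miR-145a-5p was under the filter, at 3.63 and 6.79 RPM at 10 ng, and 14.3 and 15.8 RPM at 100 ng. The part of such tissue miRNAs in the pair's values was not tested.

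The opposite arms of the pair's own hairpins are cut from the same precursors and were sparse. miR-125a-3p had 1 read in all 12 libraries, too few to show any trend. miR-125b-1-3p had 11 and 27 reads at 10 ng, 10 and 4 at 50 ng, then 21 and 11 at 100 ng before oxidation. Over pooled reads its ratio between 10 and 100 ng was 1.34 (95% exact interval 0.812 to 2.21, counting error only), against 9.68 (9.18 to 10.2) for miR-125b-5p computed the same way. miR-125b-2-3p had 2 and 7 reads, 3 and 4 reads, and 6 and 6 reads, a pooled ratio of 0.843 (0.314 to 2.18) that rests on few reads. None of the 3 had a read after oxidation. The partners' 3p arms were sparse too: miR-99b-3p had 37 reads and let-7c-1-3p 11 in the libraries before oxidation, and the other 4 had none.

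The RefSeq table holds 5 mature mouse miRNAs with the seed of the pair. miR-351-5p, encoded on the X chromosome (chrX:53053315-53053338, minus strand), stood at 20.4 and 12.7 RPM at 10 ng, 5.04 and 7.47 RPM at 50 ng, and 8.09 and 9.15 RPM at 100 ng before oxidation. It was highest at 10 ng, but 50 ng lay below 100 ng, unlike in the pair. Its difference between 10 and 100 ng was 0.83 ± 0.23 (limma adjusted p = 0.0149), which did not pass with only the 4 libraries compared (limma adjusted p = 0.0791). miR-351-3p of the same hairpin stood at 6.43 and 8.71 RPM, 5.43 and 4.18 RPM, and 2.02 and 3.96 RPM. miR-6394 and miR-6367, the remaining 2, had no read in any library.

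The miRNAs whose log2(RPM + 1) ran most like the mean of the pair over the 6 libraries before oxidation were miR-30d-5p (Pearson r = 0.997), let-7b-5p (0.996), let-7c-5p (0.995), miR-375-3p (0.991) and miR-423-5p (0.991). These correlations rest on 6 libraries at 3 inputs that share their depth and composition, and are given as a description. The 5 ran the same way over much smaller ranges than the pair. Mean RPM at 10, 50 and 100 ng was 1037, 462 and 307 for miR-30d-5p. It was 1103, 604 and 390.3 for let-7b-5p, and 145, 68.7 and 46.0 for miR-375-3p.

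Other miRNAs that share simple sequence features with the pair are given as a description. The part of these features in the pair's values was not tested. Of the 141 tested miRNAs, 123 matched a RefSeq mature sequence. The 19 others ending in GA, as both members do, had a median difference between 10 and 100 ng of -0.26 (range -1.68 to 2.09). The 72 others starting with U had a median of -0.51, and the 61 others with at least 45% G and C a median of -0.29, beside -0.49 over all tested. Across 121 miRNAs without the pair, Pearson's r of the percentage of G and C with this difference was 0.27, given as a description over miRNAs that are not independent. None of the 1018402 sequences in the deposited piRNA table contained the whole sequence, the first 15 bases or the last 15 bases of a member or partner, or the reverse complement of the first 15. Of the 123 miRNAs with a sequence, 9 had their first 15 bases in that table.

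Oxidation lowered both members. Averaged over inputs, the log2(RPM + 1) difference after against before was -8.41 ± 0.26 for miR-125a-5p (limma adjusted p = 4.38e-10) and -8.64 ± 0.19 for miR-125b-5p (limma adjusted p = 4.06e-11), lower in all 6 libraries. The rule used the input trend, and this average weights the inputs equally. The values before oxidation that chose the pair still enter it, so these p-values are not independent of the choice. limma called 137 of 141 miRNAs lower (97.2%), with a median of -6.02 over all tested, so that the calls of the pair were those of nearly every miRNA tested. The filter of 5 RPM was passed mostly through the libraries before oxidation, which favours lower calls. Both members passed it only through those libraries, with means of 1.01 and 0.854 RPM after oxidation. Their lower calls were thus favoured in advance, and their p-values here and in the alternative fits are no independent evidence. Without a filter limma called 296 of 496 miRNAs lower, with a median of -0.85. Differences of the partners were -10.27 for miR-100-5p, -10.11 for miR-99a-5p, -9.79 for let-7a-5p, -9.67 for let-7c-5p, -9.59 for miR-99b-5p and -6.53 for let-7e-5p. miR-351-5p, at 0 reads after oxidation, was at least 54.4-fold lower, with 3 reads in the 6 libraries together taken as its upper limit.

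The direction held on the deposited scale and with scaling to all or to methylated spike-ins. Per unmethylated spike-in read, which oxidation also removes, it did not hold at every input. There the level before oxidation was 3.53, 0.939 and 0.670 times that after it for miR-125a-5p at 10, 50 and 100 ng, and 3.61, 1.94 and 0.530 times for miR-125b-5p. Relative to the other miRNAs it depended on the method. Centring on library medians left -2.20 and -2.44 for miR-125a-5p and miR-125b-5p, both still called lower by limma. edgeR with TMM gave -0.28 (adjusted p = 0.695) and -0.62 (adjusted p = 0.522), and DESeq2 gave 0.15 (adjusted p = 0.881) and -0.21 (adjusted p = 0.813). Quantile normalization gave -0.71 (limma adjusted p = 0.248) and -1.02 (limma adjusted p = 0.0477). Over the whole table the calls were then 60 lower and 69 higher after centring, 46 and 36 after quantile normalization, 13 and 8 with TMM, and 8 and 19 with DESeq2, against 137 and 2.

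The size of the loss at each input is given from pooled reads as a description, since the values before oxidation chose the pair. For miR-125a-5p, reads per recovered total before oxidation were 1583 times those after it at 10 ng (95% exact interval 803 to 3666), 584 times at 50 ng (228 to 2145) and 505 times at 100 ng (139.5 to 4178). For miR-125b-5p the ratios were 1614 (742 to 4400.0), 1515 (419 to 12516) and 399 (155 to 1466). For each member the intervals of the 3 inputs overlapped. They cover counting error only, and replicates differed by more than that, so they do not bound the loss.

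After oxidation the libraries had not served the choice of the pair, and the input trend could be tested in them. Between 10 and 100 ng the log2(RPM + 1) difference was 1.11 ± 0.44 for miR-125a-5p (limma adjusted p = 0.381) and 0.59 ± 0.33 for miR-125b-5p (limma adjusted p = 0.659). In RPM both libraries of 10 ng lay above both of 100 ng for each member. The reads were 8 against 2 in all for miR-125a-5p and 6 against 4 for miR-125b-5p. For miR-125b-5p the first library of 10 ng and both of 100 ng had 2 reads each. Their RPM values differed only through the library totals. limma called 2 of 141 miRNAs in either direction (1.42%). The pooled ratios were 6.38 (95% exact interval 1.27 to 61.6) and 2.39 (0.567 to 11.5), so that neither interval excluded a ratio as high as 9.66, the one miR-125b-5p had before oxidation. Between 50 and 100 ng the differences were 0.24 ± 0.44 (limma adjusted p = 1) and -0.23 ± 0.33 (limma adjusted p = 0.948), with libraries overlapping, and limma called 6 miRNAs (4.26%). Both of these signs turned without the first library of 50 ng, to -0.39 and 0.23.

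Of the partners, limma called 1 in these comparisons after oxidation. miR-99b-5p had 3 and 4 reads at 10 ng, 10 and 4 at 50 ng, then 30 and 30 at 100 ng. Its limma difference was -1.91 ± 0.26 between 10 and 100 ng (adjusted p = 0.00860) and -1.53 ± 0.26 between 50 and 100 ng (adjusted p = 0.0213). Its direction against input after oxidation was thus the one it had before. The effect of oxidation at 10 against 100 ng, an interaction term, was called by limma for 52 of 141 miRNAs (36.9%) and for 2 of the 6 partners, miR-99b-5p and let-7e-5p.

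The share of the pair among miRNAs before and after oxidation is given as a description, since the values at 10 ng before oxidation, which chose the pair, carry its mean. It was 0.631% and 1.18% after oxidation at 10 ng, 0.640% and 0.292% at 50 ng, then 0.341% and 0.320% at 100 ng, with exact binomial intervals as wide as 0.567 to 2.16. The mean was 1.91% ± 2.12 before and 0.567% ± 0.338 after (SD, n = 6). At 10 ng both libraries after oxidation had intervals below the shares before it, while at 50 and 100 ng the intervals after oxidation held the shares before it. The intervals cover counting error only, and replicates of 10 ng after oxidation had a chi-square per degree of freedom of 11.9. They are therefore no test of a change in share. The ratio of the pair to its partners was 0.287 and 0.291 before oxidation at 10 ng, 0.0449 and 0.0461 at 50 ng, then 0.0153 and 0.0134 at 100 ng. After oxidation it was 0.103 and 0.270 at 10 ng, 0.0930 and 0.0714 at 50 ng, then 0.0400 and 0.0326 at 100 ng. The means were 0.116 ± 0.135 before and 0.102 ± 0.0872 after (SD, n = 6). The order of these means turned on a log2 scale, with a difference of 1.19, and without either library of 10 ng before oxidation, with differences of 0.0195 and 0.0203.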

How the data were processed

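Small RNA libraries of mouse testis were analysed from the tables the authors deposited. The miRNA and piRNA tables hold RPM values, and the deposited table of 6 spike-in sequences holds read counts (its 1 blank line was left out). The submitters' processing notes name Bowtie and the builds mm10 and hg38; the RPM denominator and the use of hg38 are not stated there. Denominators were worked out from the smallest spacing of the piRNA values, of which 100% were whole reads (tolerance 0.01); of the miRNA values 93.2% to 100% were whole.

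The log2(RPM + 1) values of the 141 miRNAs averaging 5 RPM or more were fitted to 6 group means with limma-trend (limma 3.58.1, R 4.3.3), and p-values were Benjamini-Hochberg adjusted over all of them, with calls under 0.05. Alternatives used edgeR 4.0.16 and DESeq2 1.42.0 on rounded recovered reads, other pseudocounts, filters and scalings, a replicate block, and leaving out each library. Exact permutation tests planned for the pair's share and ratio to partners are not reported, since values that chose the pair enter them. Counting intervals used SciPy 1.17.1. The fit was tested on simulated data.

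The members and all lists were chosen with earlier results of these data known. Named miRNAs were the pair, its partners and all their 3p arms, the seed relatives, the neighbours of the pair in the order of miRNAs of at least 50 RPM, the 5 most correlated miRNAs and the tissue miRNAs. Mature sequences are those of the RefSeq table (GRCm38.p6) and annotation is GENCODE M21.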

Additional observations from a re-analysis of the deposited data

Results flagged for a closer look

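The oxidation difference at 10 ng against that at 100 ng was called for 2 of 6 cluster partners (limma interaction), beside 52 of the 141 tested miRNAs (36.9%), so the partners' share is near that of the whole table. For miR-99b-5p the oxidation difference was lower at 10 than at 100 ng by -1.18 ± 0.37 on the log2(RPM + 1) scale (limma adjusted p = 0.0371). For let-7e-5p it was lower by -1.27 ± 0.34 (limma adjusted p = 0.0215), with 0 to 2 reads in each library after oxidation. That value is the input difference after oxidation (-0.26, near the floor) less the one before it (1.01), so it mostly restates the latter. The other 4 partners were not called, at 1.02 for miR-99a-5p (limma adjusted p = 0.0709), 0.83 for miR-100-5p, 0.01 for let-7a-5p and -0.29 for let-7c-5p. The same difference was not tested for the pair, which was chosen on the libraries before oxidation that enter it.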

How the results depend on the processing

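The oxidation difference of the pair was called lower under pseudocounts of 0.1 and 10, both other filters, centring, both spike-in scalings and edgeR without TMM. For miR-125a-5p it was not called under quantile normalization (-0.71) or edgeR with TMM (-0.28), and turned to 0.15 with DESeq2. For miR-125b-5p it was not called under TMM (-0.62) or DESeq2 (-0.21). Without 1 library it ranged from -8.62 to -8.20 for miR-125a-5p and from -8.80 to -8.49 for miR-125b-5p. The fit on the libraries compared is the reported one for oxidation. After oxidation no alternative called a member between inputs. Between 10 and 100 ng the values without 1 library ran from 0.56 to 1.66 (miR-125a-5p) and from 0.25 to 0.93 (miR-125b-5p). Between 50 and 100 ng they ran from -0.39 to 0.87 and from -0.69 to 0.23, miR-125a-5p turned to -0.074 with a pseudocount of 0.1, and miR-125b-5p to 0.073 with DESeq2. The cause was not tested. Of the 6 partners between 10 and 100 ng before oxidation, 0 were called lower under centring, quantile normalization and scaling to all spike-in reads, and 1 under scaling to methylated spike-in reads. Called higher were 0 with a pseudocount of 0.1 and under quantile normalization. The count was 3 with a pseudocount of 10, centring, both spike-in scalings, both edgeR fits, DESeq2 and only the libraries compared. Without 1 library 0 to 3 were lower and 1 to 2 higher (2 without either library of 50 ng after oxidation). Between 50 and 100 ng 3 were lower with a pseudocount of 10, edgeR without TMM, DESeq2 and only the libraries compared. Higher were 2 with a pseudocount of 10 and with only the libraries compared, and 1 under scaling to all spike-in reads, both edgeR fits and DESeq2. Without 1 library both counts were 0. The share of the pair changed on oxidation by -1.67 to -0.797 percentage points without 1 library, and by -0.25 on a log2 scale. The ratio to the partners changed by -0.0484 to 0.0203 without 1 library, the higher values without a library of 10 ng before oxidation, and by 1.19 on a log2 scale, opposite in sign. Replicate numbers did not pair the libraries: same-numbered deviations correlated at -0.20 to 0.18 over 15 group pairs, with 2 above 0.1. A replicate block left 2 partners called lower and 1 higher between 10 and 100 ng, with miR-99b-5p at limma adjusted p = 0.0614, and changed no call of the pair. The depth after oxidation, 625 to 937 miRNA reads, limits what can be said of inputs there.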
